A study of Mus musculus with 62 samples.

Results

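The 10 genes described here encode proteins that move lactate and pyruvate across membranes, burn ketone bodies and set how much pyruvate becomes acetyl-CoA in the mitochondrion. They were Slc16a1, Slc16a3 and Ldhb (lactate), Bdh1, Oxct1 and Acat1 (ketone bodies), and Pdk4, Pdk2, Pdp1 and Pdha1 (pyruvate). A chromatin region belonged to a gene where the authors' annotation gave that gene as the nearest one. This rule gave 478 regions of 601616 in 20 lists, of which 470 of 596282 lay in the 16 peak lists and 8 of 5334 in the 4 lists of differential regions. In mouse skeletal muscle, genes for lactate export and glycolysis are used most in fast glycolytic fibers, and genes for lactate and ketone oxidation in slow oxidative fibers and in the heart. Pyruvate dehydrogenase kinases switch off the pyruvate dehydrogenase complex during fasting and endurance exercise, which spares glucose, and the phosphatase switches it on again. The coactivator Pgc1a is known for raising mitochondrial and oxidative genes in muscle.

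The peak lists came from ChIP-seq of H3K27ac, found at promoters and enhancers in use, and of H3K4me2, which marks such elements whether or not they are active. The labels give the strain of all groups as C57BL/6, and each mark was profiled in 2 libraries in each of 8 groups. The fast extensor digitorum longus (EDL), the mostly fast quadriceps (Quad), the slow soleus (Sol) and the diaphragm (Dia) were taken from sedentary wild-type mice, with the muscles of 3 mice pooled per EDL, Sol or Dia sample. Ex was Quad of wild-type mice that had running wheels for 4 weeks from the age of 8 weeks and were killed 4 to 6 h after the last bout, and Sed was Quad of sedentary wild-type mice. mTg was Quad of sedentary PGC1a Tg(+) mice, which express Pgc1a from the muscle creatine kinase promoter in muscle fibers, and Wt was Quad of wild-type littermates. The lists of regions hyper- or hypoacetylated in Ex against Sed are called EMR, and those of mTg against Wt are called PMR. Of the 62 samples of the series, the others were inputs, ATAC-seq of Quad, and the factors MED1 and NFAT.

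The 32 mark libraries held 6.4 to 24.2 M tags (median 19.5 M). The mTg libraries held 11.66 and 12.69 M tags for H3K27ac and 6.41 and 14.13 M for H3K4me2, where Wt held 14.94 and 14.07 M and 13.72 and 13.26 M. For Dia replicate 2 the tag totals in the file headers stand exchanged between the 2 marks relative to the study's table of reads. Over 12270 regions matched between the Dia lists of both marks, the levels of replicates 1 and 2 had a Pearson's r of 0.957 in H3K27ac and 0.978 in H3K4me2, and libraries of different marks at most 0.818. This describes regions normalised within each list and carries no test. The fiber markers separated the muscles. Levels were taken off the log scale and summed over the H3K27ac peaks of marker genes, per 1 M of the sum over all peaks. Over 5 slow fiber genes the sum was 978 to 1100 in Sol, 326 to 356 in Dia, 99 to 112 in EDL and 113 to 114 in Quad. Over 5 fast fiber genes the sum was 277 to 332 in Sol, 700 to 749 in Dia, 856 to 881 in EDL and 928 to 1031 in Quad. Myh7, the slow myosin heavy chain, had no H3K27ac peak in EDL or Quad, while in Sol all 5 slow markers had one. The slow marker Tnnt1 had none in EDL, and the fast marker Tnnt3 had none in EDL or Quad. The libraries labelled Wt and mTg need care for H3K4me2, since Wt stood further from Quad (2.6% of shared regions over 2-fold apart) than from mTg (0.729%). The Pgc1a transgene is separate from the endogenous locus, so the mark at that locus does not check the mTg label. These were whole muscles, so fewer cells of a type and less mark per cell cannot be told apart in any value below.

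The 10 genes held 248 H3K27ac and 222 H3K4me2 peaks summed over the 8 lists of each mark. Per list the H3K27ac count ran from 23 in Ex to 45 in Wt, and the H3K4me2 count from 18 in mTg to 35 in Wt. Of the 248 H3K27ac peaks, 124 were intergenic, 111 lay within a gene and 13 had their centre at a promoter, and 134 lay over 10 kb from the nearest transcription start site (TSS). Slc16a1 had the most separate acetylated places (12 over the 8 lists, 2 of them present in every list), and Oxct1 and Pdk2 had 2 each. The assignment by nearest gene hid 2 promoters. The H3K27ac peak over the Oxct1 TSS carried the name of the overlapping transcript BC037032 in EDL and Dia, and the one over the Pdp1 TSS carried the name of 1700123M08Rik in all 8 lists. The TSSs of each pair of genes lie 978 and 124 bases apart, so the peak cannot be given to one of the pair. Counting whichever peak covered the TSS, each of the 10 genes had one in every H3K4me2 list. In the H3K27ac lists the same held except for Bdh1, which had none over its TSS in Quad and Sed. There the nearest Bdh1 peak began 470 and 171 bases downstream.

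To set the promoters side by side, the log2 level of the peak over the TSS was taken per kb of its width. The median of the same library over the regions found in all 8 lists (6911 for H3K27ac and 13055 for H3K4me2) was subtracted. A value of 0 is thus the level of a typical shared region. Each list was normalised on its own by the authors and each peak has the width called in its list, so no test was run across lists, and a wide peak averages its summit with its flanks.

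Slc16a3 encodes MCT4, the transporter that exports lactate from glycolytic fibers. Its TSS peak had H3K27ac levels of 0.79 and 0.93 in the 2 EDL libraries, 0.73 and 0.85 in Quad, -0.75 and -0.50 in Dia, and -1.03 and -0.92 in Sol. In the other Quad groups the values were 0.36 and -0.10 in Sed, -0.35 and -0.32 in Ex, 0.41 and 0.48 in Wt, and 0.76 and 0.84 in mTg. EDL, mTg and Quad overlapped at the top, and below them each group was separated from the next in the order Wt, Sed, Ex, Dia, Sol. The width moved with the level in the muscles: the peak spanned 11.24 kb in EDL and 11.11 kb in Quad, 5.79 kb in Dia and 6.37 kb in Sol. It was 12.35 kb wide in Sed and 7.43 kb in Ex, and 13.53 kb in Wt and 6.75 kb in mTg, where the narrower peak held the higher level per kb. In EDL and Quad this promoter ranked at the 98.6 and 98.3 percentile of all peaks of its list, and in Sol at the 53.6 percentile.

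Slc16a1 encodes MCT1, the transporter through which oxidative cells take up lactate and ketone bodies. Its TSS peak was acetylated in every group and differed little between muscles, with values of 0.20 and -0.11 in EDL, -0.11 and -0.60 in Quad, 0.30 and -0.03 in Sol, and -0.19 and -0.21 in Dia. In Sed the values were -0.22 and 0.54, in Ex 0.29 and -0.01, in Wt -0.59 and -0.39, and in mTg 0.59 and 0.50. The replicates of neighbouring groups overlapped along the order mTg, Sed, Ex, Sol, EDL, Dia, Quad, Wt, except between EDL and Dia. The ends of the order, mTg and Wt, did not overlap.

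Ldhb encodes the heart type subunit of lactate dehydrogenase, which favors the oxidation of lactate to pyruvate. The H3K27ac level of its TSS peak was 0.24 and -0.05 in Sol and -0.52 and -0.55 in Dia, against -0.67 and -0.82 in EDL and -1.21 and -1.26 in Quad. It was -1.28 and -1.80 in Sed, -0.66 and -1.06 in Ex, -1.57 and -1.36 in Wt, and -0.60 and -0.47 in mTg. Sol thus stood above all other groups, Sed, Wt and Quad were the lowest, and Dia overlapped with mTg. The Dia peak was the widest at 8.56 kb, running far into the gene, and the Wt peak the narrowest at 1.59 kb.

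Among the ketone genes, Bdh1 showed the widest spread between muscles. It encodes 3-hydroxybutyrate dehydrogenase, which makes the first step of 3-hydroxybutyrate oxidation. Its TSS peak had H3K27ac levels of 0.23 and -0.17 in Sol and 0.05 and -0.13 in Dia, against -0.79 and -1.52 in EDL. The peak of 6.45 kb in Sol and 5.58 kb in Dia shrank to 4.10 kb in EDL, and Quad had no peak over the TSS but one of 0.50 kb beside it. The Quad groups with a TSS peak were also low, with -0.79 and -1.26 in Ex, -1.40 and -1.39 in Wt, and -2.12 and -1.44 in mTg. Sol and Dia overlapped each other and lay above every other library.

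Oxct1 encodes the CoA transferase that commits ketone bodies to oxidation outside the liver, and Acat1 the mitochondrial thiolase that splits acetoacetyl-CoA in the next step. Neither promoter followed the pattern of Bdh1. The Oxct1 TSS peak was above 0 in all 16 H3K27ac libraries, with group means from 0.09 in Ex to 0.70 in mTg and 0.23 in Dia, 0.52 in Sol, 0.53 in Quad and 0.62 in EDL. The Acat1 peak had group means of -0.29 in Dia, 0.09 in Sol, -0.38 in Quad and -0.10 in EDL. Its highest values were 1.11 and 0.80 in mTg, where Wt had -0.03 and 0.19, Sed 0.17 and 0.23, and Ex 0.48 and 0.24. The mTg peak of Acat1 was 1.14 kb wide, the same as in Ex, and that of Wt 1.76 kb.

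Pdk2 and Pdk4 encode kinases that switch off pyruvate dehydrogenase, and Pdk4 is the one induced by fasting and exercise. The Pdk2 TSS peak ranked high in every list, at the 90.9 (Ex) to 99.5 percentile (EDL), with levels of 1.09 and 1.12 in EDL, 1.03 and 0.84 in Quad, 0.65 and 0.57 in Dia and 0.55 and 0.44 in Sol. In Ex the Pdk2 values of 0.22 and 0.31 lay below those of the 14 other libraries, among them Sed with 0.82 and 0.51. The Pdk4 TSS peak had group means from -0.71 in Sol to -0.03 in Wt and near 0 in mTg, and no 2 neighbours in the order of groups were separated. In Dia its replicates themselves stood apart, at -1 and 0.10. Pdha1, which encodes the catalytic alpha subunit of pyruvate dehydrogenase, had group means between 0.01 (Sed) and 0.58 (EDL). Pdp1 encodes the phosphatase that reactivates the complex, and the peak over its TSS, shared with 1700123M08Rik, had means from -0.21 in Sol to 0.56 in Quad. The Sol values of -0.39 and -0.02 overlapped with those of Sed.

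**Figure D1:**
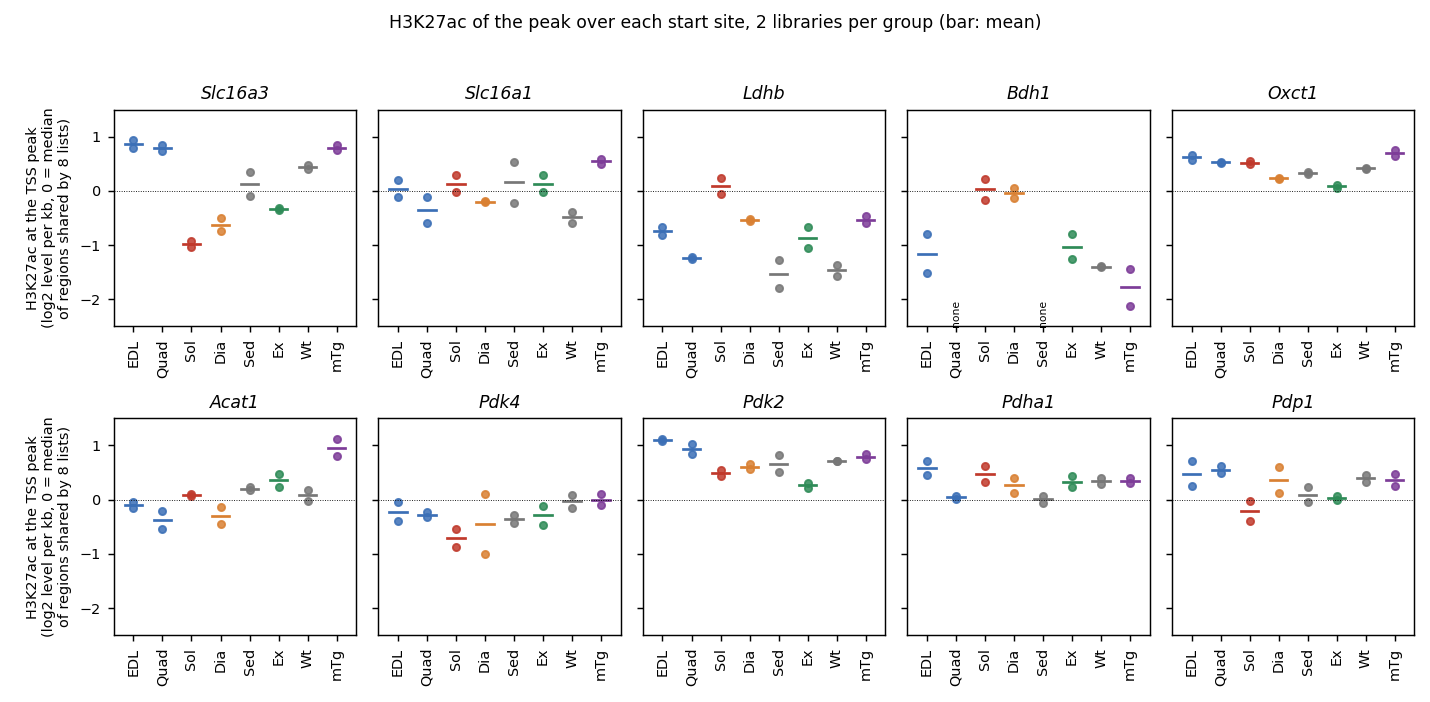
H3K27ac of the peak over each TSS for the 10 genes (vertical axis, log2 level per kb, where 0 is the median of regions shared by the 8 lists) in 8 groups of 2 libraries (horizontal axis, points are libraries, bars are means, "none" marks no peak over the TSS). Slc16a3 is high in EDL and Quad and low in Sol (-1.03 and -0.92), Ldhb and Bdh1 run the other way, and Oxct1 and Pdk2 lie above 0 in all 16 libraries.

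Shared regions were then compared between pairs of lists. Each region was paired with 1 region of the other list where they covered at least 50% of each other, each library was centred on its median over all matched regions, and a region was called where the group means of the log2 level per kb differed over 2-fold and the replicates did not overlap. This is a description with no test. In H3K27ac, 7 of the 150 matched regions of the 10 genes were called over 10 pairs, with differences from -1.82 to 1.98. In the muscles these were 2 of 10 between Sol and Quad (3.59% of all matched regions), 1 of 11 between Dia and Quad (4.2%) and 2 of 15 between EDL and Sol (2.73%), all at or over a TSS. None was called of 19 between EDL and Quad (0.652%) or of 14 between Dia and Sol (1.64%).

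Slc16a3 made up 3 of these 5 calls. In the Sol and Quad pair the centred level of its TSS region was -0.36 and -0.31 in Sol and 1.44 and 1.52 in Quad, a difference of -1.82 or 3.52-fold. EDL stood 1.98 above Sol (1.61 and 1.74 against -0.33 and -0.28), and Dia 1.34 on the log2 scale below Quad (-0.06 and 0.24 against 1.39 and 1.48, or a difference of -1.49 without Dia replicate 2). The last of these calls was lost without centring, where the difference was -0.92. For Ldhb the libraries were 0.90 and 0.56 in Sol and -0.50 and -0.59 in Quad, a difference of 1.28. For Bdh1 they were 0.03 and -0.72 in EDL and 0.92 and 0.47 in Sol, and the difference of -1.04 depended on single libraries, being -0.67 without EDL replicate 2 and -0.82 without Sol replicate 1, and was -0.74 without centring. The slow and fast fiber sums given above move with all 3 genes, and their part in these differences was not tested.

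Quad, Sed and Wt are all Quad of sedentary wild-type mice, so their pairs show how far like tissue differed between lists. No H3K27ac region of the 10 genes was called between Quad and Sed (0 of 17, 1.32% of all matched regions), Quad and Wt (0 of 19, 1.46%) or Sed and Wt (0 of 17, 0.509%). These counts depended on the processing. Without centring 2 were called between Sed and Wt, where 12.3% of all matched regions then were. Without scaling by width 1, 2 and 1 were called in the 3 pairs (4.71%, 7.16% and 4.43% of all matched regions). Leaving out Quad replicate 1 gave 1 call between Quad and Sed (2.52% of all matched regions) and 1 between Quad and Wt (2.95%). Leaving out Sed replicate 1 gave 1 between Quad and Sed (4.41%) and 1 between Sed and Wt (2.2%). Leaving out Wt replicate 2 gave 2 between Quad and Wt (3.09%). None was called between Ex and Sed (0 of 12, 2.92%), where the differences ran from -0.53 for Slc16a3 to 0.61 for Ldhb. Between mTg and Wt 2 of 16 were called (4.64%). The Slc16a1 TSS region was at 1.40 and 1.23 in mTg and 0.10 and 0.30 in Wt, a difference of 1.12. The Ldhb TSS region was at 0.22 and 0.26 in mTg and -0.87 and -0.68 in Wt, a difference of 1.01 that fell to 0.92 without Wt replicate 1, 0.99 without mTg replicate 2 and 0.97 without centring. Acat1 was not called, with 1.93 and 1.53 in mTg, 0.66 and 0.87 in Wt and a difference of 0.97. Its peak was 1.14 kb wide in mTg and 1.76 kb in Wt, so scaling by width added to this difference. Acat1 had no region in the PMR lists. Requiring an 80% overlap left 1 of the 7 calls, that of Slc16a1, since the other 6 regions had unequal widths in the paired lists.

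**Figure D2:**
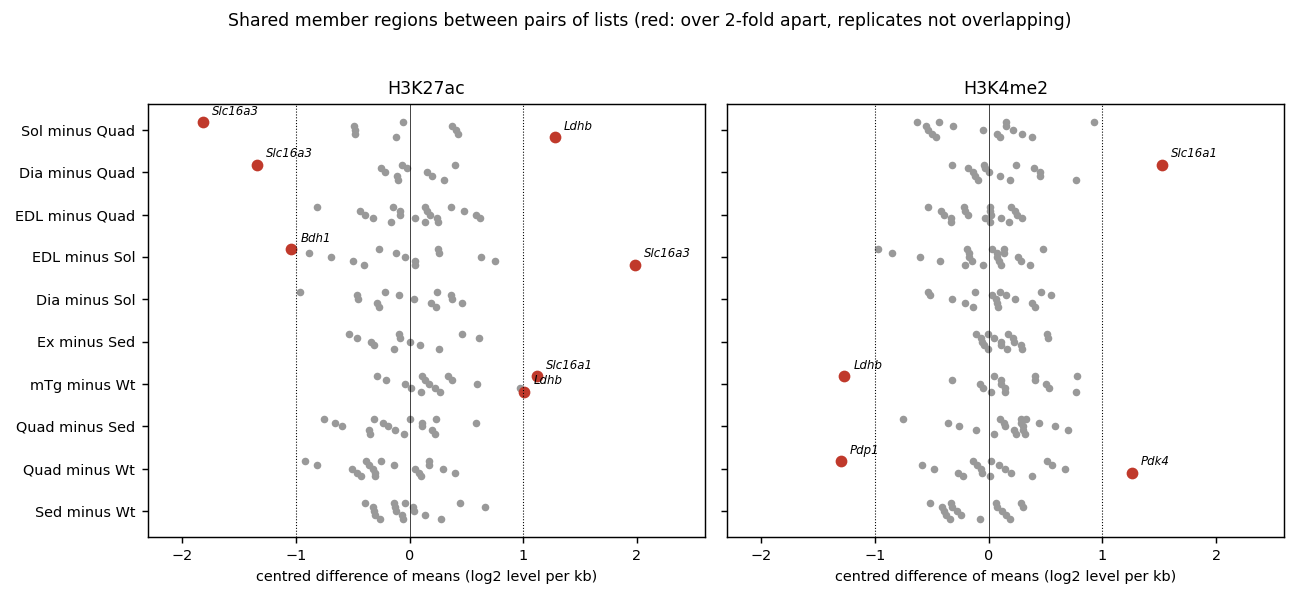
Centred difference of group means (horizontal axis, log2 level per kb) for every matched region of the 10 genes in 10 pairs of lists (vertical axis), H3K27ac on the left and H3K4me2 on the right; red points were over 2-fold apart with replicates that did not overlap, and dotted lines mark 2-fold. The largest H3K27ac differences are those of Slc16a3 (-1.82 in Sol against Quad and 1.98 in EDL against Sol).

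H3K4me2 spanned a narrower range at the promoters of Slc16a3, Ldhb, Bdh1 and Slc16a1. At the TSS peaks its group means ran from -0.40 to 0.35 for Slc16a3, from -0.58 to -0.12 for Ldhb, from -0.38 to 0.39 for Bdh1 and from 0.01 to 0.80 for Slc16a1. Sol, the highest group for H3K27ac at Bdh1, was at the low end there for H3K4me2 per kb, with -0.35 and -0.40. The Sol peak was the widest of the 8 lists at 5.24 kb. EDL was at -0.40 and -0.33 over 3.44 kb, Quad at -0.07 and -0.01 over 2.21 kb and Dia at 0.43 and 0.36 over 2.41 kb. Scaling by width lowers a wide peak, so this order does not show that Sol held less H3K4me2. In the muscles 1 region was called, of 16 between Dia and Quad (1.55%): an intergenic region at -37.6 kb from the Slc16a1 TSS with 0.10 and 0.05 in Dia and -1.49 and -1.40 in Quad, a difference of 1.52, or 1.55 without Dia replicate 2. None was called of 16 between Sol and Quad (1.84%), 19 between EDL and Quad (0.482%), 21 between EDL and Sol (0.614%), 17 between Dia and Sol (0.439%), 17 between Ex and Sed (0.0971%), 19 between Quad and Sed (0.784%) or 17 between Sed and Wt (1.78%). The other 3 calls used the libraries labelled Wt. They were 1 of 16 between mTg and Wt (0.729%), at -30.8 kb from Ldhb (-2.96 and -1.91 in mTg, -0.89 and -1.45 in Wt), and 2 of 19 between Quad and Wt (2.6%), at -13.3 kb from Pdk4 and 65.5 kb from Pdp1. The Ldhb difference of -1.27 was -0.98 without Wt replicate 1 and -0.74 without mTg replicate 1, the library with the fewest tags. The Pdp1 difference of -1.30 was -0.97 without Wt replicate 2 and -0.93 without centring, and that of Pdk4 was 1.26, or 0.76 without scaling by width.

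The authors' EMR and PMR lists address how wheel running and the Pgc1a transgene changed H3K27ac in Quad. Their 4 libraries were normalised together, so levels can be compared within a list. All regions of these lists were selected by the authors for differing in the same libraries. The limma fit reported here sets each difference against a variance drawn mostly from the whole list. It is no independent evidence of the change. Their values are taken to be shrunken log2 levels, and many regions selected at 2-fold show less than 1 on this scale, the cause of which was not tested. Of the 10 genes, 2 had regions in the hypoacetylated EMR list (10.6% of the genes with a peak in Sed or Ex), 0 in the hyperacetylated EMR list (2.34%), 3 in the hyperacetylated PMR list (9.22%) and 0 in the hypoacetylated PMR list (4.38%). The 10 genes had a median of 2.5 H3K27ac peaks in Sed and 5 in Wt, where genes in general had 2. Limma put 5 of 5 and 3 of 3 of their regions past an adjusted p of 0.05, against 99.7% of regions in either EMR list and 100% in either PMR list.

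Pdk4 had 3 hypoacetylated regions in Ex, none of them at its TSS. The first lay 51.5 kb downstream of the TSS in intergenic DNA (mm10 chromosome 6, 5441054 to 5448493) and was at 8.88 and 8.52 in Ex and 9.71 and 9.52 in Sed. Limma gave a log2 difference of -0.92 (SE 0.21, Benjamini-Hochberg adjusted p = 0.00015). The second, in the last intron of Pdk4 at 10.4 kb (5484064 to 5487770), was at 6.72 and 6.56 in Ex and 7.50 and 7.57 in Sed. The third lay upstream at -13.2 kb (5507451 to 5511450) and was at 8 and 7.89 in Ex and 8.89 and 8.61 in Sed. Both Ex libraries were below both Sed libraries at all 3, and the other log2 differences were -0.90 (limma adjusted p = 0.00018) and -0.80 (limma adjusted p = 0.00051). In the peak lists the regions at 10.4 and -13.2 kb were called in 6 of the 8 groups each, and were absent in Sol and Ex. The downstream region was called in all 8 groups and was the strongest Pdk4 peak in 7 of them (in Sed the one at -13.2 kb was), at up to the 97.9 percentile in Wt. At the Pdk4 TSS itself Ex and Sed had the same mean after centring, 0.30, over peaks of 4.25 and 7.74 kb.

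Slc16a3 had 2 hypoacetylated regions in Ex. The first covered its TSS and first intron (chromosome 11, 120944048 to 120956394, 12.35 kb) and was at 10.02 and 9.90 in Ex and 10.95 and 10.56 in Sed, a log2 difference of -0.80 (SE 0.21, limma adjusted p = 0.00054). The second lay 16.7 kb downstream in an intron of the next gene, Csnk1d (120964663 to 120966940), and was at 5.93 and 5.98 in Ex and 6.83 and 6.89 in Sed, a difference of -0.91 (limma adjusted p = 0.00016). The replicates of Ex and Sed did not overlap in either region. In the peak lists the place 16.7 kb downstream was acetylated in EDL, Quad, Sed and Wt, and had no peak in Sol, Dia, Ex and mTg. Ex and mTg were alike in this absence, but at the promoter mTg had no hypoacetylated region. The promoter level per kb was higher in mTg than in Wt, over peaks of 6.75 and 13.53 kb. Scaling by width raised mTg against Wt here, so this does not show more H3K27ac over the whole promoter region.

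H3K27ac at marker genes of fibers and of other cell types differed between the Ex and Sed libraries. It was not measured here how many cells of each type the muscles held. Per 1 M of the summed level of all peaks, 4 fiber genes (Ckm, Acta1, Ttn, Neb, all with peaks) held 1341 and 1144 in Sed and 677 and 541 in Ex. The 5 fast fiber genes held 927 and 697 in Sed and 558 and 477 in Ex, and 4 of them (Myh4, Pvalb, Actn3, Mybpc2) were in the hypoacetylated EMR list. The 5 slow fiber genes summed to 97 and 124 in Sed and 203 and 246 in Ex. Of these, 2 had a peak in Sed and 3 in Ex, and Myh7 had none in either, so the sums cover different genes. Tnnt3, a fast gene, had no peak in Sed. Genes of most other cell types were higher in Ex: 3 fibroblast genes at 558 and 712 against 206 and 288 in Sed, 4 endothelial genes at 634 and 627 against 451 and 439, and 4 macrophage genes at 104 and 129 against 31 and 35, where Cd68 had no peak. The 2 adipocyte genes were at 49 and 62 in Ex and 32 and 36 in Sed, where Plin1 had no peak. The 2 satellite cell genes went the other way, with 18 and 13 in Ex, where Myf5 had no peak, and 32 and 36 in Sed. Their part in the lower Pdk4 and Slc16a3 signal of Ex was not tested.

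The PMR list held the TSS regions of Slc16a1 and Ldhb and a weak region of Pdp1. The Slc16a1 region (chromosome 3, 104637442 to 104640924, over the TSS and first intron) was at 9.09 and 8.94 in mTg and 8.03 and 8.22 in Wt, a log2 difference of 0.89 (SE 0.13, limma adjusted p = 9.4e-07). The Ldhb region (chromosome 6, 142505946 to 142508870, over the TSS and first intron) was at 7.70 and 7.69 in mTg and 6.61 and 6.68 in Wt, a difference of 1.05 or 2.07-fold (SE 0.12, limma adjusted p = 5.9e-08). The 2 mTg libraries lay above the 2 Wt libraries in both. Both promoters were also called in the comparison of peak lists, which used the same libraries. The Pdp1 region, 0.65 kb in the intron of Pdp1 at 1.9 kb (chromosome 4, 11963460 to 11964111), was at 4.94 and 4.81 in mTg and 4.40 and 4.36 in Wt, a difference of 0.49 (limma adjusted p = 0.0006). It was a peak in Wt alone of the 8 lists, at the 0.7 percentile there, and is among the weakest calls shown here.

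The median log2 difference was 0.89 over the 3 PMR regions of these genes and 0.74 over all 1828 hyperacetylated PMR regions, and -0.90 over the 5 EMR regions against -0.76 over all 2280. Both H3K27ac libraries of mTg held fewer tags than those of Wt, as given above. The 5 fast fiber genes summed to 1246 and 1221 in mTg and 1698 and 1644 in Wt, the 5 slow fiber genes to 71 and 70 against 140 and 106, and the 4 fiber genes to 1699 and 1788 against 1505 and 1469. Of the 5 slow genes, 2 had a peak in mTg and 4 in Wt, so their sums cover different genes. For 4 endothelial genes the sums were 298 and 328 in mTg and 251 and 222 in Wt, for 4 macrophage genes 44 and 51 against 97 and 78 with Cd68 at none in mTg, and for 3 fibroblast genes 140 and 166 against 339 and 242. The 2 adipocyte genes were at 29 and 32 in mTg and 31 and 22 in Wt, which overlapped. The 2 satellite cell genes were at 24 and 22 in mTg, where Myf5 had no peak, and 18 and 20 in Wt. Single markers stood in the PMR lists too: Plin1, 1 of the 2 adipocyte genes, had a hyperacetylated region. Pdgfra (fibroblast) and Pvalb (fast fiber) had hypoacetylated ones. Their part in the higher Slc16a1 and Ldhb signal was not tested.

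**Figure D3:**
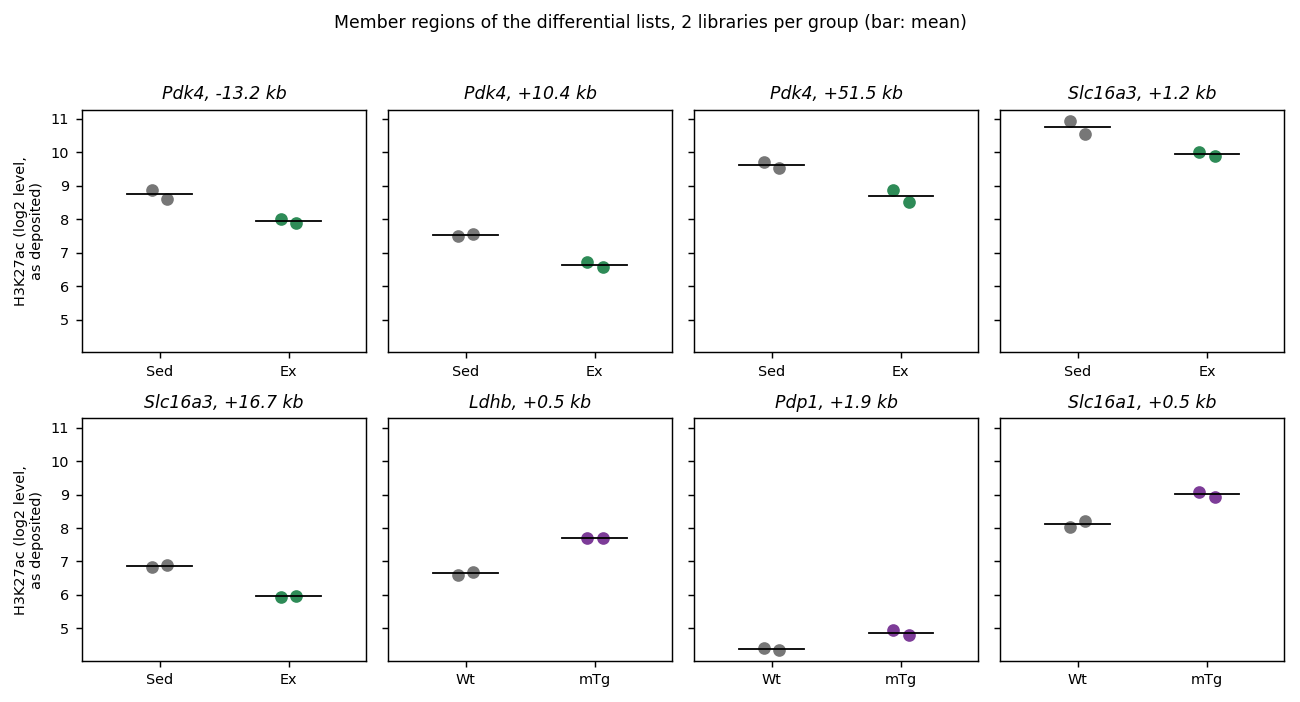
H3K27ac in the 8 regions of the 10 genes in the EMR and PMR lists (vertical axis, deposited log2 level; points are the 2 libraries of each group, bars are means; titles give the gene and the distance from the TSS). Both Ex libraries lie below both Sed libraries in the 5 Pdk4 and Slc16a3 regions, and both mTg libraries above both Wt libraries in those of Ldhb, Pdp1 and Slc16a1.

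Of 27 other genes of lactate, ketone body and pyruvate use, 22 to 26 had an H3K27ac peak in each list. Oxct2a, Aacs, Pcx and Gpt2 had hypoacetylated EMR regions (7 in all), and Hmgcll1, which encodes a ketogenic lyase outside mitochondria, had 2 hyperacetylated ones. These were 4 and 1 of the 26 genes with a peak in Sed or Ex. Among all genes with such a peak, the shares were 10.6% and 2.34%. The 2 Gpt2 regions, in a gene for an aminotransferase between pyruvate and alanine, had log2 differences of -0.96 and -0.90. The 3 regions of Pcx, the gene for pyruvate carboxylase, had -0.70, -0.95 and -0.80, and 1 Pcx region was hypoacetylated in mTg as well (-0.91). None of the 27 had a hyperacetylated PMR region (9.22% of all genes with a peak in mTg or Wt), and 1 had a hypoacetylated one (4.38%). All these differences passed limma in their list, as nearly all regions did.

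**Figure D4:**
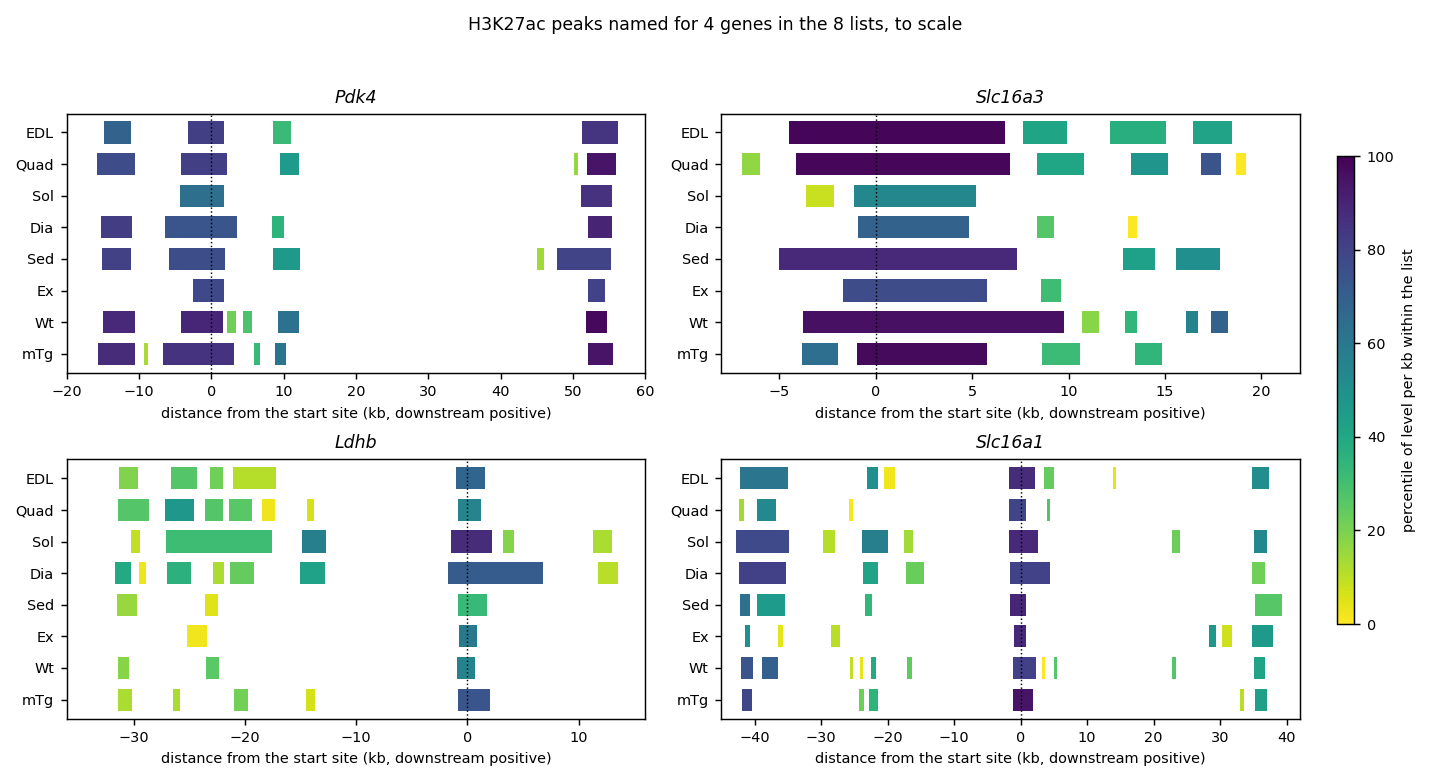
H3K27ac peaks named for Pdk4, Slc16a3, Ldhb and Slc16a1 in the 8 lists (rows), drawn to scale by distance from the TSS in kb (horizontal axis, downstream positive) and shaded by the percentile of the level per kb within the list. The Pdk4 peaks at 10.4 and -13.2 kb are missing in Sol and Ex, the Slc16a3 peak 16.7 kb downstream is missing in Sol, Dia, Ex and mTg, and the Slc16a3 promoter peak is wide in EDL, Quad, Sed and Wt (11.11 to 13.53 kb).

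Accessible sites in the ATAC-seq list of control Quad place these regions on DNA. Of the 37 Quad H3K27ac peaks of the 10 genes, 14 (37.8%) overlapped an accessible site, where 57.2% of all Quad H3K27ac peaks did, and each gene had at least 1 such peak. Of the 8 differential regions, those of Slc16a3 at the TSS, Pdk4 at 51.5 and -13.2 kb, Slc16a1 and Ldhb held accessible sites, and those of Pdk4 at 10.4 kb, Slc16a3 at 16.7 kb and Pdp1 held none. Sequences of 1 site in 4 of these regions and the Ldhb promoter are shown because they are open DNA, or the promoter, inside regions that differed. The differences were measured over the whole regions and not at these sites. The regions of Slc16a3, Pdk4 at 51.5 kb and Slc16a1 held 2 accessible sites each, and the one with a motif match is printed, a choice made after the matches were seen. In Slc16a3 and Slc16a1 it is the weaker of the pair, with 20.2 against 25.4 and 7.28 against 9.43 normalised ATAC tags. They were read from GRCm38.p6, whose primary assembly is mm10. The 4 sites are on the plus strand and 195 bases long, and the Ldhb promoter is the RefSeq window that ends just past the TSS, on the minus strand. Capitals mark matches on either strand to AGGTCA (a nuclear receptor half-site), TGANTCA (an AP-1 site) and CTA followed by 4 bases of any kind and TAG (a loose form of a MEF2 site).
Slc16a3 at 3.1 kb, inside a region hypoacetylated in Ex, chr11:120952079-120952273: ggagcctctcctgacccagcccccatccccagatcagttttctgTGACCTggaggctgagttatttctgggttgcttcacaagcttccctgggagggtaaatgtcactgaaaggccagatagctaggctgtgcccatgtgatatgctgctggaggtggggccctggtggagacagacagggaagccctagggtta
Pdk4 at 53.4 kb, inside a region hypoacetylated in Ex, chr6:5442795-5442989: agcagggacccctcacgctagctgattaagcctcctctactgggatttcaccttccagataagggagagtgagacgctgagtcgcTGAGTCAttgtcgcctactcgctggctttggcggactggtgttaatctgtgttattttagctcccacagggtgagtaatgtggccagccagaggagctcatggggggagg
Pdk4 at -13.7 kb, inside a region hypoacetylated in Ex, chr6:5509869-5510063: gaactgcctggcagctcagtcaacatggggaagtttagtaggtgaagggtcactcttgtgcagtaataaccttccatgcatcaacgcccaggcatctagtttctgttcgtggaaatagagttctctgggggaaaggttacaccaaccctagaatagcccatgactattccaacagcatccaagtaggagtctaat
Slc16a1 at 0.5 kb, inside a region hyperacetylated in mTg, chr3:104639078-104639272: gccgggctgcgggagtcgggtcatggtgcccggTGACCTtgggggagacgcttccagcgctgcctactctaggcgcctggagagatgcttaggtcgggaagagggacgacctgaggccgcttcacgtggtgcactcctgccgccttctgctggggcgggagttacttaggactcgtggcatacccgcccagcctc
Ldhb promoter, inside a region hyperacetylated in mTg, chr6:142507908-142508207: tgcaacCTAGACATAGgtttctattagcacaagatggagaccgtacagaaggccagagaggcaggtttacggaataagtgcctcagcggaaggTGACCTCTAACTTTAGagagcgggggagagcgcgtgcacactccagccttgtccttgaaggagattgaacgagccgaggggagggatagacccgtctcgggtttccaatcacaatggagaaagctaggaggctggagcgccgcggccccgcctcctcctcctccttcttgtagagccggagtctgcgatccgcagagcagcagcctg

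The Slc16a3 and Slc16a1 sites each held 1 AGGTCA, as did the Ldhb promoter, where it lies next to the second of 2 loose MEF2 matches. The Pdk4 site at 53.4 kb held 1 TGANTCA, and the Pdk4 site at -13.7 kb held none of the 3. AGGTCA was present in 16% of all 44911 accessible sites and 16.3% of 32851 promoter windows, TGANTCA in 10.2% and 7.81%, and the loose MEF2 site in 4.84% and 3.69%. The longer TNAAGGTCA, a site of estrogen-related receptors, was searched as well and found in none of the 8 accessible sites of the differential regions. Over these 8 sites, printed or not, AGGTCA was in 2 and TGANTCA in 1, the loose MEF2 site was in none, and 5 sites, among them that of Ldhb, held no match to any motif searched. RefSeq promoter windows matched 8 of the 10 genes, the others being Acat1 and Pdp1. Of the 10 windows of these 8 genes, that of Ldhb was the only one with a match to any motif searched. It is printed in place of the Ldhb accessible site, which lies inside it.

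MED1, a subunit of the mediator complex, and NFAT, the calcineurin-dependent factor, were profiled in 1 library per muscle. MED1 peaks overlapped 3 of 33 H3K27ac peaks of the 10 genes in Dia (4.16% of all H3K27ac peaks there), 1 of 29 in EDL (1.12%), 3 of 37 in Quad (3.76%) and 3 of 27 in Sol (5.34%). All of these peaks covered the TSS: those of Pdk2 in EDL, Quad and Dia, of Slc16a1 in Quad, Sol and Dia, of Pdha1 in Sol and Dia, of Slc16a3 in Quad, and of Bdh1 in Sol. Slc16a3 had no MED1 peak in EDL, where its promoter was as acetylated as in Quad, and Bdh1 had none in Dia, but the MED1 lists differed in size from 834 peaks in EDL to 4070 in Sol. NFAT peaks overlapped 2 of 27 in Sol (3.02%), at Bdh1 and Pdk2, and 0 of 37 in Quad (0.0464%), where the NFAT list held 485 peaks against 39661 in Sol. With 1 library per factor, none of these counts has a replicate check.

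Over the 8 groups, the percentile of the strongest H3K27ac peak of Bdh1 was 86.3 in Sol and 84.1 in Dia and between 41.6 (mTg) and 59.1 (Wt) in the others. Among 12527 genes, those with the most similar percentiles were Mir1931 (Pearson's r = 0.982), Ednra (0.944), E130215H24Rik (0.936), Pgghg (0.923) and Pdlim1 (0.919). These r values describe 8 groups, of which 5 are Quad and which share their calling and depth, and carry no test.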

How the data were processed

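Per the study's methods, the authors aligned reads to mm10 with Bowtie (version 1.2 in the submitters' processing notes). The labels name both mm10 and mm9 as genome builds, and all coordinates here were taken as mm10. The authors used HOMER to call histone peaks over both replicates against input, at 2-fold and an FDR of 0.05. The differential lists used the same thresholds. The deposited tag columns hold log2 values, taken to be the regularized logarithm of DESeq2, computed by the authors within each list. In the deposited lists, p-value columns (raw and adjusted) and log2 fold columns are the authors' own, and only the p-value and fold of peaks over input were used, as filters. The fold changes and p-values of the differential lists were not used. The deposited ATAC, MED1 and NFAT lists give a signal in normalised tags, and the peak lists a score, both used as the authors gave them. Footprint lists and the exercise and PGC1 ATAC lists were not used here.

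The gene lists and comparisons were chosen with earlier results of these data known. Genes were named by rule: all 10, plus the other pathway genes with a differential region, plus the 5 genes whose percentile pattern was most like that of Bdh1. Differential lists were fitted with limma 3.58.1 (R 4.3.3) over all regions, two-sided, with Benjamini-Hochberg adjustment, a method tested on simulated data. Per the study's methods each Quad sample was 1 muscle. Nothing in the labels ties replicates to batches. The p-values rest on 2 libraries per group and on a variance that limma drew nearly wholly from all regions of a list. The SE was 0.21 for each hypoacetylated EMR region of the 10 genes. Within a list these p-values thus follow the size of the difference and not the spread of each region's own replicates. Peak lists were compared with Python 3.11.15 as described beside the results. A percentile ranks the log2 level per kb within a list. Overlap with ATAC, MED1 or NFAT peaks needed 1 bp. No counts were used, so depth enters only as tag totals. Alternatives were the replicate block, a trend in the prior variance, stricter thresholds, other overlap, scaling and centring, and leaving out each library.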

Additional observations from a re-analysis of the deposited data

How the results depend on the processing

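The 8 named regions of the differential lists kept their direction in 56 of 56 fits. With 1 library left out, their log2 differences ran from -1.1 to -0.61 for EMR and from 0.43 to 1.09 for PMR. With a trend in the prior variance or a threshold of 0.01, the counts of called regions stayed at 0, 5, 3 and 0. The order is hyper- and hypoacetylated EMR, then hyper- and hypoacetylated PMR. The lists at 0 held no region of the 10 genes, so their count could not change. The other regions were selected for differing in these same libraries, so their stability is no independent evidence. At 0.01, 2030 of all 2280 hypoacetylated EMR regions and all 1828 hyperacetylated PMR regions passed. Libraries with the same replicate number did not deviate together in all lists (correlations 0.14, 0.11, -0.04 and -0.24), so the numbers were not taken as pairs, and a replicate block in the fit, straight or crossed, gave 0, 5, 3 and 0 again. In the hyperacetylated EMR list, 382 regions with none of the 10 genes, no region passed without Sed replicate 1.

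Between peak lists the counts depended on how regions were matched. The 7 H3K27ac calls became 1 at an 80% overlap and 18 without scaling by width, and the 4 H3K4me2 calls became 1 and 8. The shares over all matched regions moved the same way. For H3K27ac they ran over the pairs from 0.509% to 4.64% in the main setting. They became 0.191% to 3.11% at an 80% overlap and 4.43% to 14.6% without scaling by width. For H3K4me2 the main range of 0.0971% to 2.6% became 0.018% to 1.5% and 1.14% to 7.03%. The H3K4me2 count was 1 without the pairs that use the Wt and mTg lists, an alternative chosen after seeing the data. Leaving out each library gave 6 to 10 H3K27ac and 3 to 5 H3K4me2 calls. In the pairs that used the library, 0.645% to 7.28% and 0.148% to 4.14% of all matched regions were then called. Where they were still matched, the 11 called regions kept their direction in all 68 settings and stayed called in 56. At the 80% overlap only the Slc16a1 region in H3K27ac and the Ldhb region in H3K4me2 were still matched. The regions lost there are not counted in the 68. The 248 H3K27ac and 222 H3K4me2 peaks became 127 and 123 at an adjusted p under 0.001. Centring shifted pairs by up to 0.60 on the log2 scale (Sed against Wt, H3K27ac). With 2 libraries per group, small differences could not be resolved.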
